A study of Mus musculus with 20 samples.

Results

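The effect of losing Glb1 in mouse brain that already lacks Neu3 was examined by comparing the libraries labelled as knockout of Glb1 and Neu3 together (DKO) with those labelled as knockout of Neu3 alone (Neu3KO). These are 10 of the 20 RNA-seq libraries of the series, with 5 libraries per group, and they were chosen by their genotype labels. Neu3 is labelled as knocked out in both groups, and Glb1 is labelled as knocked out only in DKO. The other 10 libraries, 5 wild type (WT) and 5 with knockout of Glb1 alone (Glb1KO), enter here only to show where the effect of Glb1 loss differed between brains with and without Neu3. One hemisphere per brain gave the total RNA, from which polyadenylated transcripts were sequenced. The labels describe the healthy mice as obtained from The Jackson Laboratory. The sources used here name no strain, no age and no form of the knockout alleles. Each of the 20 libraries had reads of Xist (14673 to 25328) and 0 reads of the Y-chromosome genes Ddx3y, Uty, Kdm5d and Eif2s3y. That is the pattern of female tissue. Each library carries its own identifier, but whether each is a different animal is not said, so p-values measure the spread between these libraries, which may be in part technical.

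Glb1 codes for the lysosomal acid beta-galactosidase, which removes the terminal galactose of GM1 ganglioside, and its loss causes the storage disease GM1 gangliosidosis. Neu3 makes a plasma membrane sialidase, an enzyme that removes sialic acid from gangliosides. Gangliosides are abundant in neurons, and in lysosomal storage diseases of brain the microglia (resident macrophages) and astrocytes take on reactive states while myelin is often poorly formed.

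Total counts ran from 16682458 to 18525446 in DKO and from 15162311 to 25145806 in Neu3KO. The first principal component of the 10 libraries placed the DKO libraries between 24.2 and 40.0 and the Neu3KO libraries between -35.8 and -26.8. The sample identifiers begin with E in DKO replicates 1 and 2 and in Neu3KO replicate 1, and with W in the other 7 libraries, and the labels do not explain these letters. Levels below are CPM, that is, counts scaled to a common library total with TMM factors. Differences are log2 fold changes of DKO against Neu3KO with standard errors (SE), from edgeR's quasi-likelihood test with Benjamini-Hochberg adjusted p-values over all genes tested. A gene is said to be called, or to have risen or fallen, where that adjusted p was under 0.05. The tissue label was checked against the pan-neuronal list, whose 15 members summed to 7189 to 8086 CPM in DKO and to 8377 to 9450 CPM in Neu3KO. In RNA from whole tissue, fewer cells of a type and less RNA per cell cannot be told apart.

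Glb1 (ENSMUSG00000045594, GRCm38 chr9:114401076-114474898) separated the groups completely. It was at 19.0, 21.6, 21.0, 21.8 and 19.3 CPM in Neu3KO and at 2.39, 4.32, 5.31, 4.25 and 3.72 CPM in DKO. The DKO mean of 3.999 ± 1.07 CPM (SD, n = 5) was 19.5% of the Neu3KO mean of 20.5 ± 1.34 CPM (SD, n = 5), with an exact two-sided permutation p = 0.00794, the smallest that 5 against 5 libraries can give. Glb1 stood at 20.2 ± 1.32 CPM in WT and at 3.38 ± 0.903 CPM in Glb1KO (SD, n = 5 each). Neu3 (ENSMUSG00000035239, chr7:99811439-99828417) was at 2.98 ± 0.826 CPM in DKO and at 2.86 ± 0.409 CPM in Neu3KO (SD, n = 5 each), and the groups overlapped (exact two-sided permutation p = 0.825). Neu3 was at 3.85 ± 1.22 CPM in WT (SD, n = 5), so reads of Neu3 remained in both groups labelled as its knockout, and gene-level counts check the Neu3 labels only weakly.

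Of 18336 genes tested, 4606 were called between DKO and Neu3KO, or 25.1%. Of these, 2263 were higher in DKO (12.3% of the genes tested) and 2343 were lower (12.8%). The numbers were near equal, but the sizes were not. A called change of at least 2-fold was higher in DKO for 567 genes and lower for 108, and one of at least 4-fold was higher for 153 genes and lower for 10. A change under 1.5-fold made up 3213 of the 4606 calls. The groups did not overlap for 2865 genes, or 15.6% of those tested, of which 2685 were also called.

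**Figure D1:**
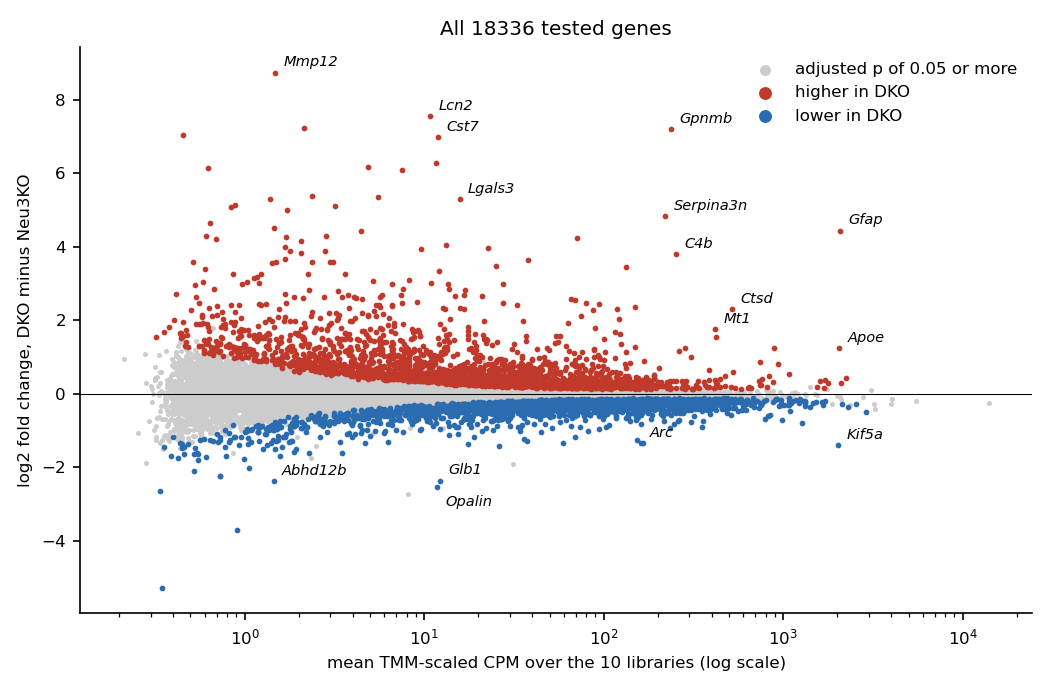
Log2 fold change of DKO against Neu3KO (vertical axis) against the mean TMM-scaled CPM over the 10 libraries (horizontal axis, log scale) for each of the 18336 genes tested. Red points are genes called higher in DKO and blue points genes called lower. The red points reach above 8 while most blue points lie above -2.

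The genes nearest to Glb1 on chromosome 9 were set apart, because a knockout can carry flanking DNA of another origin. Within 20 Mb of Glb1, 81 of 379 genes tested were called, or 21.4% (exact 95% binomial interval 17.4% to 25.8%), beside 25.1% of all genes tested. Within 5 Mb it was 27 of 93, or 29.0% (20.1% to 39.4%), and both intervals include 25.1%. The 5 called genes nearest to Glb1 were Cmtm6 (0.53 on the log2 scale), Susd5 (-0.61), Clasp2 (-0.34), Gadl1 (1.81) and Tgfbr2 (0.66).

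Several of the 12 highest fold changes were those of genes known from macrophages. Gpnmb, a glycoprotein of lysosome-laden macrophages (chr6:49036546-49070929), was at 3.77, 2.55, 3.01, 3.39 and 3.24 CPM in Neu3KO and at 463, 419, 524, 441 and 504 CPM in DKO. Its groups were far apart, with a rise of 7.19 on the log2 scale (SE 0.156, edgeR adjusted p = 2.86e-18). Mmp12, the macrophage elastase, had no read in any Neu3KO library and 265 reads over the DKO libraries, at 5.18, 2.31, 1.92, 2.01 and 3.45 CPM. It was 92.5-fold higher in DKO when computed against a floor of 3 reads over the Neu3KO group. The 95% interval of the ratio, for counting error only, starts at 74.7. Atp6v0d2, a proton pump subunit of osteoclasts and macrophages, had 2 reads over the Neu3KO libraries and 377 over the DKO libraries. The ratio of its scaled reads was 197, with a 95% interval of 54.3 to 1636 that covers counting error only.

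Cst7, the protease inhibitor cystatin F, rose from a mean of 0.18 to one of 23.8 CPM, by 6.98 on the log2 scale (SE 0.335, edgeR adjusted p = 1.09e-14). Itgax, which codes for the integrin CD11c, lay between 0.059 and 0.521 CPM in Neu3KO and between 12.1 and 19.7 CPM in DKO. Lgals3, the galactoside-binding lectin galectin-3, lay between 0.472 and 0.922 CPM in Neu3KO and between 22.6 and 43.9 CPM in DKO. None of these 3 genes had overlapping groups, which was a condition for the 12 highest. The remaining genes among the 12 highest were Lcn2 (7.56), an iron-siderophore binding protein of reactive astrocytes, the inhibitory receptors Lilr4b (6.16), Lilrb4a (5.35) and Cd22 (5.10), the niacin receptor Hcar2 (5.28) and Stra6l (5.39). Lilr4b and Lilrb4a are near-identical neighbours, so their reads may have been split between them.

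**Figure D2:**
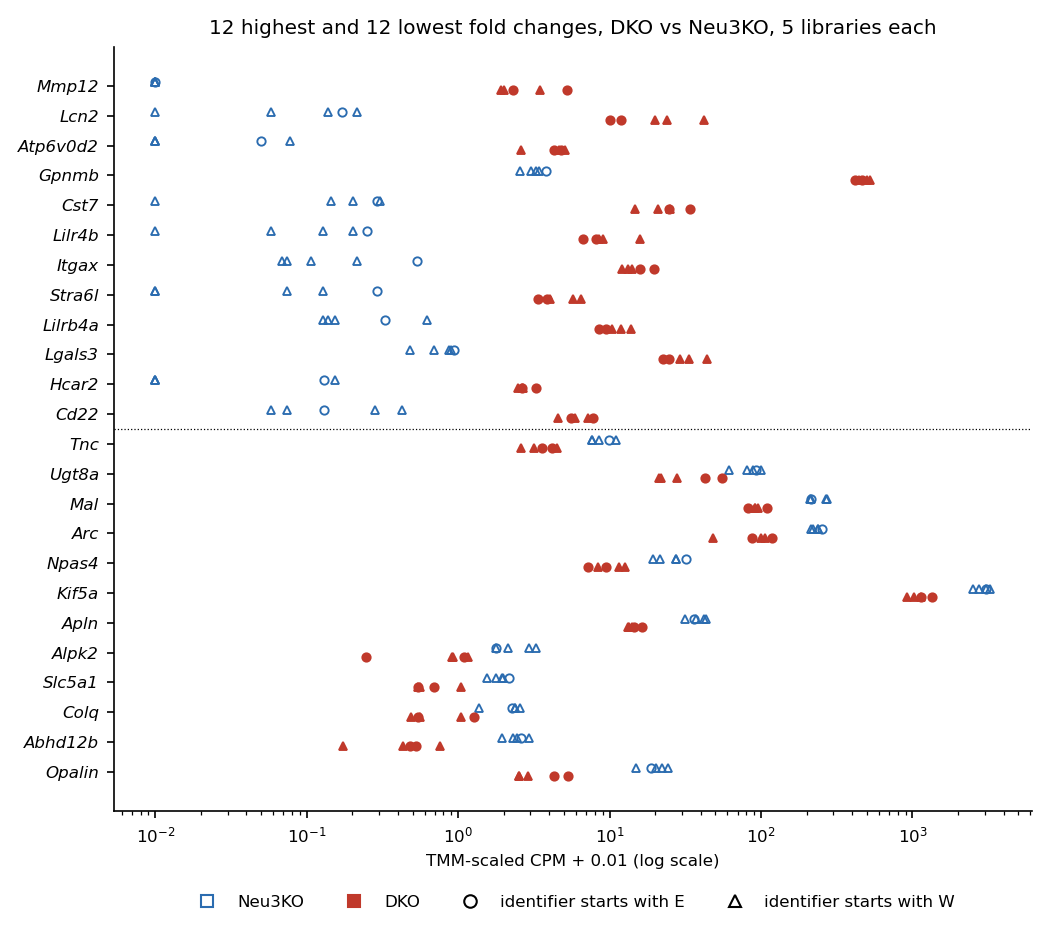
TMM-scaled CPM plus 0.01 on a log scale for the 12 genes with the highest and the 12 with the lowest fold change, in each of the 5 Neu3KO libraries (open blue) and the 5 DKO libraries (filled red). Circles and triangles mark libraries whose identifiers start with E and W. The groups do not overlap for any of the 24 genes, which was a condition of their choice.

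The list of disease-associated microglia holds genes that microglia raise around lesions and stored material. All 23 of its 23 members rose, with a median log2 fold change of 2.41 beside -0.0047 for all genes tested. The groups overlapped for only 1 member, whereas 15.6% of all genes tested had no overlap. This list, like the others, was chosen with earlier results of these data known, so its counts are a description and not a test. The lipid receptor Trem2 lay between 8.71 and 13.4 CPM in Neu3KO and between 50.9 and 59.6 CPM in DKO (log2 fold change 2.42, SE 0.1). Its signalling adaptor Tyrobp rose by 2.98 and the dectin-1 gene Clec7a by 6.27 on the log2 scale. Cd68, a membrane protein of macrophage lysosomes, rose from 5.67 ± 0.821 to 69.7 ± 4.21 CPM (SD, n = 5 each). Apoe, the lipid carrier that astrocytes also make, rose by 1.24 on the log2 scale.

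Genes of resting microglia were less uniform. Of 14 homeostatic members, 8 rose and 1 fell. Csf1r, the receptor for the survival factors of microglia, rose by 0.52 and the chemokine receptor Cx3cr1 by 0.61. The purinergic receptor P2ry12 did not pass the test, at 26.7 ± 5.28 CPM in DKO and 26.1 ± 2.68 CPM in Neu3KO (SD, n = 5 each), nor did Tmem119 at 17.7 ± 2.91 and 15.9 ± 2.17 CPM. Slc2a5, a fructose carrier, fell by 1.17 on the log2 scale. The summed level of the homeostatic list was 631.8 and 641.8 CPM in the 2 DKO libraries with E identifiers and 474.2 to 553.4 CPM in the 3 with W identifiers. Within the W libraries 6 members rose and 2 fell. The part of the identifier letters in this was not tested.

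Receptors by which microglia and macrophages bind antibodies, debris and sialic acid were also higher. Of 11 phagocytic and Fc receptor genes tested 9 rose, among them the inhibitory Fc receptor Fcgr2b (from 2.79 to 42.9 CPM, log2 fold change 3.96) and the signalling chain Fcer1g (2.34). Of 7 Siglec genes, which code for lectins that bind sialic acid, 4 rose. Siglec1 rose by 3.60 and Cd33 by 1.49 on the log2 scale. The Siglec that fell, Mag (-0.83), is made by oligodendrocytes. Of 13 genes of toll-like receptors and their partners 11 rose and none fell, led by Tlr2 (2.99) and Cd180 (2.63).

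Complement genes rose together. Of 12 tested 11 rose, with a median log2 fold change of 2.35. C4b lay between 30.7 and 41.4 CPM in Neu3KO and between 449 and 492 CPM in DKO (log2 fold change 3.79, SE 0.0677, edgeR adjusted p = 1.18e-30). C1qa, which starts the classical pathway, rose by 2.43, the central component C3 by 4.05 and its receptor C3ar1 by 3.11. Reads of C4b may have been shared with a near-identical copy.

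Of 14 chemokine and cytokine genes tested, 9 rose and 3 fell. Ccl3, which attracts myeloid cells, was at 0.0401, 0.192, 0.825, 0.0678 and 0 CPM in Neu3KO and at 3.02, 3.79, 3.72, 2.93 and 3.24 CPM in DKO. Ccl4 had 1 read over the Neu3KO libraries and 110 over the DKO libraries, a ratio of 115 with a 95% counting interval of 20.3 to 4592. Cxcl16 rose by 1.74 and Tgfb1 by 1.09, whereas Cx3cl1, the fractalkine that neurons present to microglia, fell by 0.57 on the log2 scale. The cytokine genes Il1b, Tnf and Il6 had too few reads to be tested.

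Of 24 genes of the type I interferon response 15 rose and none fell, with a median log2 fold change of 0.76. Ifit3, an antiviral protein induced by interferon, was at 5.41, 8.46, 10.4, 8.21 and 8.91 CPM in Neu3KO and at 18.7, 18.0, 21.5, 14.6 and 20.9 CPM in DKO. Bst2 (tetherin) rose by 1.67. The interferon-induced gene Isg15 (0.30) did not pass the test. The promoter of Ifit3 is shown because its list was the one in which a promoter motif was most frequent. The bases before its start (RefSeq, GRCm38.p6, chr19:34583279-34583528, plus strand) are printed with matches to the interferon response element GAAANNGAA, on either strand, in capitals.
Ifit3: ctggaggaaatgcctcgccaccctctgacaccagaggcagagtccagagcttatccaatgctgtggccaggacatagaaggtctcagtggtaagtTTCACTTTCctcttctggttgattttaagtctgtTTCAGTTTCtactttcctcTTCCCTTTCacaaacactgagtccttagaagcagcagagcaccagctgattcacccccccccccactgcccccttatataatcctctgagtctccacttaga
This stretch of 250 bases holds 3 matches. In windows of 300 bases around the start, 10 of the 15 interferon genes with a promoter in the table held a match (66.7%), beside 9.76% of 27025 genes. A match is a description of the letters only.

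Of 17 genes of antigen presentation tested 12 rose and 1 fell. B2m, the invariant chain of class I molecules, lay between 56.9 and 63.3 CPM in Neu3KO and between 153 and 224 CPM in DKO (log2 fold change 1.61). The class I genes H2-K1 (1.58) and H2-D1 (1.49) and their transactivator Nlrc5 (2.02) rose as well. The class II genes H2-Eb1 (-0.74), H2-Aa (-0.75) and their transactivator Ciita (-0.60) had values below 0, and their calls changed with single libraries and with the fit. H2-Eb1 was called, but not without Neu3KO replicate 1 or 3 or DKO replicate 2, 3, 4 or 5 (-0.75 to -0.59). H2-Aa was called only without Neu3KO replicate 3 (-0.87) or DKO replicate 1 (-1.08), and Ciita only without Neu3KO replicate 3 (-0.66) or DKO replicate 2 (-0.83), among the fits that left out 1 library. With the identifier letter as a term 3 of the 17 antigen presentation genes fell, and 3 fell within the W libraries alone. The H2 genes are a family of close copies, so their separate counts are uncertain. Of 9 inflammasome genes tested, 5 rose, among them Casp1 (1.03) and Pycard (1.14).

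Markers of other immune cells were measured beside these lists. Of 10 genes of border-associated macrophages 5 rose, including Mrc1 (1.11) and Ms4a7 (3.82), and the list summed to 55.2 to 69.5 CPM in DKO and to 26.7 to 33.0 CPM in Neu3KO. Of 21 markers of monocytes, neutrophils and lymphocytes, 14 had too few reads to be tested, among them Ccr2, Ly6g and Cd3e. Of the 7 others 2 rose and 1 fell, beside 12.3% risen and 12.8% fallen of all genes tested. The 7 summed to 20.6 to 31.9 CPM in DKO and to 26.9 to 36.0 CPM in Neu3KO. The 2 that rose were the neutrophil genes S100a8 (2.08) and S100a9 (1.91), with 83 reads of S100a8 over the DKO libraries and 20 over the Neu3KO libraries. S100a9 was not called without Neu3KO replicate 1, 3 or 5 or without DKO replicate 1 (log2 fold changes 1.54 to 1.76), and within the W libraries alone neither gene had enough reads to be tested.

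Reactive astrocyte genes were higher in DKO. Gfap, the intermediate filament of astrocytes (chr11:102887336-102900912), was at 212, 205, 158, 165 and 180 CPM in Neu3KO and at 3922, 4270, 4269, 3568 and 3905 CPM in DKO. The log2 fold change was 4.44 (SE 0.141, edgeR adjusted p = 6.28e-14), and every DKO library stood above every Neu3KO library. Serpina3n, a secreted protease inhibitor, lay between 12.7 and 17.6 CPM in Neu3KO and between 359 and 522 CPM in DKO (log2 fold change 4.83, SE 0.106). Of 20 reactive astrocyte genes all 20 rose, with a median of 2.37. The groups did not overlap for any of them, beside 15.6% of all genes tested. This list too was chosen with earlier results of these data known, so its counts are a description and not a test. Vim, another intermediate filament, rose by 2.36 and the enzyme gene Aspg by 2.83.

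Of 15 homeostatic astrocyte genes 10 rose and 2 fell, with a median of 0.34. The water channel Aqp4 lay between 175 and 242 CPM in Neu3KO and between 585 and 685 CPM in DKO (log2 fold change 1.55). The transcription factor Sox9 rose by 0.63. The glutamate transporter Slc1a2 did not pass the test, at 2686 ± 115 CPM in DKO and 2854 ± 195 CPM in Neu3KO (SD, n = 5 each). The GABA transporter Slc6a11 fell by 0.36.

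Of 13 genes of gp130 and STAT3 signalling, by which cytokines of the interleukin-6 family reach the nucleus, 8 rose and 1 fell. Osmr, the receptor for oncostatin M, rose from 4.17 ± 0.711 to 46.1 ± 6.31 CPM (SD, n = 5 each). Stat3 rose by 1.04, its feedback inhibitor Socs3 by 1.46 and Cebpd by 1.90. The 30 bases around the RefSeq start of Gfap (GRCm38.p6, chr11:102897183-102897212, minus strand) are shown because they hold a pair of STAT half-sites, TTCCNGGAA, in capitals.
Gfap: atgggggtgcTTCCAGGAAgtcaggggcag
In windows of 300 bases, 2 of the 17 reactive astrocyte genes with a promoter in the table held this pair (11.8%), Gfap and Steap4, beside 1.35% of all 27025 genes. None of the 13 signalling genes with a promoter did.

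Genes of the lysosome were higher across its parts. The proteases came first. Of 16 cathepsins, their inhibitors and related proteases 14 rose and none fell, with a median of 0.99. Ctsd, the main aspartic protease of lysosomes (chr7:142375911-142388038), was at 173, 183, 168, 183 and 169 CPM in Neu3KO and at 1047, 887, 877, 765 and 742 CPM in DKO (log2 fold change 2.30, SE 0.0819, edgeR adjusted p = 2.06e-17). Within DKO, replicates 1 and 2 were highest. Ctsb rose from 527 ± 14.96 to 1260 ± 68.9 CPM (SD, n = 5 each), Ctsz by 2.13 and Ctss, a protease of microglia, by 2.31 on the log2 scale.

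Of 22 genes of lysosomal membrane and biogenesis 17 rose and none fell, with a median of 0.54. Grn, the progranulin gene, lay between 45.9 and 49.6 CPM in Neu3KO and between 171 and 208 CPM in DKO (log2 fold change 2.02, SE 0.0564). Lamp1, the most used marker of the lysosomal membrane, rose by 0.65, Laptm5, which blood-derived cells and microglia use, by 1.93, and the cholesterol carrier Npc2 by 1.201. The transcription factor genes Tfeb (0.12) and Tfe3 (0.12), known for driving lysosomal genes, did not pass the test.

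Of 19 genes of the vacuolar proton pump 12 rose, with a median of only 0.14, and 6 were called within the W libraries alone. Apart from Atp6v0d2, the changes were small. The largest of the others was the rise of Atp6v0e by 0.49, and Atp6v1g1 rose by 0.47. Of 19 lysosomal glycan hydrolases 12 rose, led by Naglu (1.61) and Gusb (1.40), which both degrade glycosaminoglycans, while the sulfatase gene Ids fell by 0.17. Of 18 autophagy genes 5 rose and 3 fell, with a median of 0.00, beside 12.3% risen and 12.8% fallen of all genes tested. The receptor gene Optn rose by 0.69.

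The promoters of Ctsd and Ctsa are shown because both genes rose and both hold TCACGTGA, the core of the CLEAR element found before many lysosomal genes. The 250 bases before each RefSeq start in GRCm38.p6 are printed, at chr7:142387828-142388077 on the minus strand for Ctsd and at chr2:164833523-164833772 on the plus strand for Ctsa, with matches in capitals.
Ctsd: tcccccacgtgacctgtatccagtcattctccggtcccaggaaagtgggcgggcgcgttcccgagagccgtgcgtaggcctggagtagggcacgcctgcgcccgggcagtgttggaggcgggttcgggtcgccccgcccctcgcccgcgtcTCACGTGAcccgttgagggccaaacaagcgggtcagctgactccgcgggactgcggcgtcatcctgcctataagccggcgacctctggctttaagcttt
Ctsa: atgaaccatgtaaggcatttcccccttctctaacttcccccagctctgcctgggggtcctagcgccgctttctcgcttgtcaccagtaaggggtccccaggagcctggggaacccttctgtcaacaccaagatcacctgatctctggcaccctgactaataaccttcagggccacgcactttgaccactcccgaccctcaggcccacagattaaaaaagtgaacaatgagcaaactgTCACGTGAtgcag
In windows of 300 bases, 8 of the 74 lysosomal, pump and ganglioside breakdown genes with a promoter in the table held the core on either strand (10.8%), beside 1.12% of all 27025 genes. All 8 had risen, but so had 51 of the 74. The lists include genes chosen for their place in the lysosome, which is where this element is known from. A further match in Ctsa lay just after its start.

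Of 18 genes of ganglioside breakdown 11 rose and 6 did not pass the test, and Glb1 itself (-2.36) was the one that fell. Hexa, which acts on GM2, the product of beta-galactosidase, lay between 40.3 and 45.4 CPM in Neu3KO and between 77.5 and 115 CPM in DKO (log2 fold change 1.12). Ctsa, the protective protein that holds beta-galactosidase and the lysosomal sialidase in a complex, lay between 79.3 and 87.9 CPM in Neu3KO and between 171 and 193 CPM in DKO (log2 fold change 1.13, SE 0.0517). Neu1, that lysosomal sialidase, rose by 0.39 and the activator gene Gm2a by 0.67.

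The genes of ganglioside and galactolipid synthesis went the other way, and by little. Of 16 tested 10 fell and none rose, with a median of -0.19. The largest falls were those of the myelin galactolipid enzymes Ugt8a (-1.32) and Gal3st1 (-0.80). Of the enzymes that build gangliosides, Ugcg, which makes the first glucosylceramide, fell from 101 ± 3.64 to 87.4 ± 3.90 CPM (SD, n = 5 each). B4galnt1, which makes GM2 and so opens the path to GM1, fell by 0.22 on the log2 scale, but was not called without Neu3KO replicate 2 or DKO replicate 3 (-0.19 in each case). St3gal5 (-0.04), which makes GM3, did not pass the test.

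Lipid and iron handling changed beside the lysosome. Of 18 genes of cholesterol export and lipid droplets 13 rose and 1 fell, including the exporter Abca1 (1.13) and the droplet coat gene Plin2 (1.05). Apod, a lipid carrier, lay between 146 and 193 CPM in Neu3KO and between 223 and 575 CPM in DKO. Of 24 genes of cholesterol biosynthesis 10 rose and none fell, led by Lss (0.55), but within the W libraries alone 3 rose and 2 fell. Of 22 iron and antioxidant genes 18 rose and 1 fell. They included Hmox1, which degrades haem, from 4.24 ± 0.645 to 21.2 ± 1.96 CPM (SD, n = 5 each), the oxidase subunit Cyba (2.84) and the metallothionein Mt1 (1.76). Of 15 annexin and S100 genes 12 rose and 1 fell, led by S100a6 (1.83).

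Oligodendrocyte genes were lower in DKO. Opalin, a membrane protein of mature oligodendrocytes (chr19:41062474-41077113), was at 18.6, 22.3, 24.1, 20.3 and 14.9 CPM in Neu3KO and at 4.27, 5.26, 2.90, 2.53 and 2.50 CPM in DKO. The groups did not overlap, a condition for the 12 lowest genes, and the fall was of 2.53 on the log2 scale (SE 0.214, edgeR adjusted p = 5.86e-09). The 2 DKO libraries with E identifiers were the highest of DKO.

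Of 19 genes of myelin and mature oligodendrocytes 18 fell and none rose, with a median of -0.78. The groups did not overlap for 17, beside 15.6% of all genes tested, in a list chosen with earlier results of these data known. Mal fell by 1.34, Mog by 1.03 and Mbp, the basic protein of compact myelin, by 0.37. Enpp2 (-0.14), which the choroid plexus also makes, was the exception. Of 15 precursor and lineage genes 5 fell and 1 rose, beside 12.8% fallen and 12.3% risen of all genes tested. The lineage factors Sox10 (-0.69) and Olig2 (-0.67) fell, and the precursor marker Pdgfra (-0.02) did not pass the test.

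Neuronal genes were lower by small amounts, with some larger exceptions. Kif5a, a kinesin of axonal transport (chr10:127225696-127263348), was at 3068, 3265, 2745, 2518 and 3081 CPM in Neu3KO and at 1146, 1337, 1144, 1026 and 923 CPM in DKO. No DKO library reached the level of a Neu3KO library, which was a condition for the 12 lowest genes. The log2 fold change was -1.40 (SE 0.0742, edgeR adjusted p = 7.60e-14). Of 15 pan-neuronal genes 11 fell and none rose, with a median of -0.22, among them the neurofilament gene Nefl (-0.47) and Snap25 (-0.23), a protein of vesicle fusion. Of 21 synaptic genes 13 fell and none rose. Rims1, of the release site, fell by 0.75 and the postsynaptic scaffold gene Shank3 by 0.44. Of 24 glutamate and GABA receptor genes 16 fell and none rose, led by Grm3 (-0.94), a receptor that astrocytes share.

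Markers of neuron classes were counted beside the shares of all genes tested, of which 12.3% rose and 12.8% fell. Of 12 excitatory markers 6 fell and 1 rose, against 1 and 1 of 12 inhibitory and 1 and 1 of 10 striatal markers. These counts were not tested against each other. Of 12 cerebellar markers 6 fell and 1 rose. The Purkinje cell gene Car8 lay between 161 and 252 CPM in Neu3KO and between 43.1 and 143 CPM in DKO, and Calb1 fell by 0.68 and Itpr1 by 0.72. Within the W libraries alone 2 of the 12 fell, and Car8 was not called (-1.23). The hindbrain list, which marks how much of the brainstem a sample holds, had no call among 10 genes tested (median -0.63). It summed to 27.6 to 94.1 CPM in Neu3KO and to 30.5 to 55.3 CPM in DKO.

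Immediate early genes, which neurons transcribe after activity, were lower. Arc was at 254, 237, 219, 215 and 236 CPM in Neu3KO and at 119, 86.7, 106, 99.2 and 48.4 CPM in DKO, with a log2 fold change of -1.34 (SE 0.196, edgeR adjusted p = 6.35e-05). Of 13 tested 9 fell and none rose, with a median of -0.75. Npas4 fell by 1.37 and Egr1 by 0.92. The labels do not give the time of tissue collection, which such genes follow. The other genes among the 12 lowest were the lipid hydrolase gene Abhd12b (-2.38), Colq (-1.50), which anchors acetylcholinesterase, the glucose carrier Slc5a1 (-1.49), the kinase Alpk2 (-1.44), the peptide Apln (-1.41) and the matrix protein Tnc (-1.31).

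Stress, cell division and vascular genes were measured as well, beside shares of 12.3% risen and 12.8% fallen over all genes tested. Of 24 oxidative phosphorylation genes 1 fell and none rose, and the median was 0.00. Of 20 genes of the integrated stress and unfolded protein responses 3 rose and 1 fell, and the rise of Atf3 (2.35) stood apart. Of 18 p53 targets and apoptosis genes 8 rose and 1 fell, led by the death receptor gene Fas (1.58). Of 15 cell division genes 6 rose, among them Mki67 (1.201) and Top2a (1.75), with levels in DKO from 2.64 to 9.70 and from 2.36 to 7.45 CPM. Within the W libraries alone Mki67 was not called (0.75). Of 16 endothelial genes 5 rose and 2 fell, and the adhesion gene Icam1 (2.18) rose most. Of 21 trophic factors and receptors 5 rose, among them Igf1 (0.91) and Fgf2 (1.27), and 5 fell, among them Bdnf (-0.57).

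The further lists had few calls or mixed ones, to be read beside the 12.3% of all genes tested that rose and the 12.8% that fell. Of 15 matrix proteoglycan genes 2 rose, Cd44 among them at 2.32, and 6 fell. Of 20 neuropeptide genes 1 rose and 1 fell, of 15 circadian clock genes 3 rose and 1 fell, and of 15 pericyte and fibroblast genes 2 rose and 2 fell. Of 12 choroid plexus and ependymal genes 1 rose, and none of 7 blood and pituitary genes was called. The one that rose, Ttr (0.50), was not called without Neu3KO replicate 1, 2, 4 or 5 or DKO replicate 3, 4 or 5 (0.42 to 0.53).

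**Figure D3:**
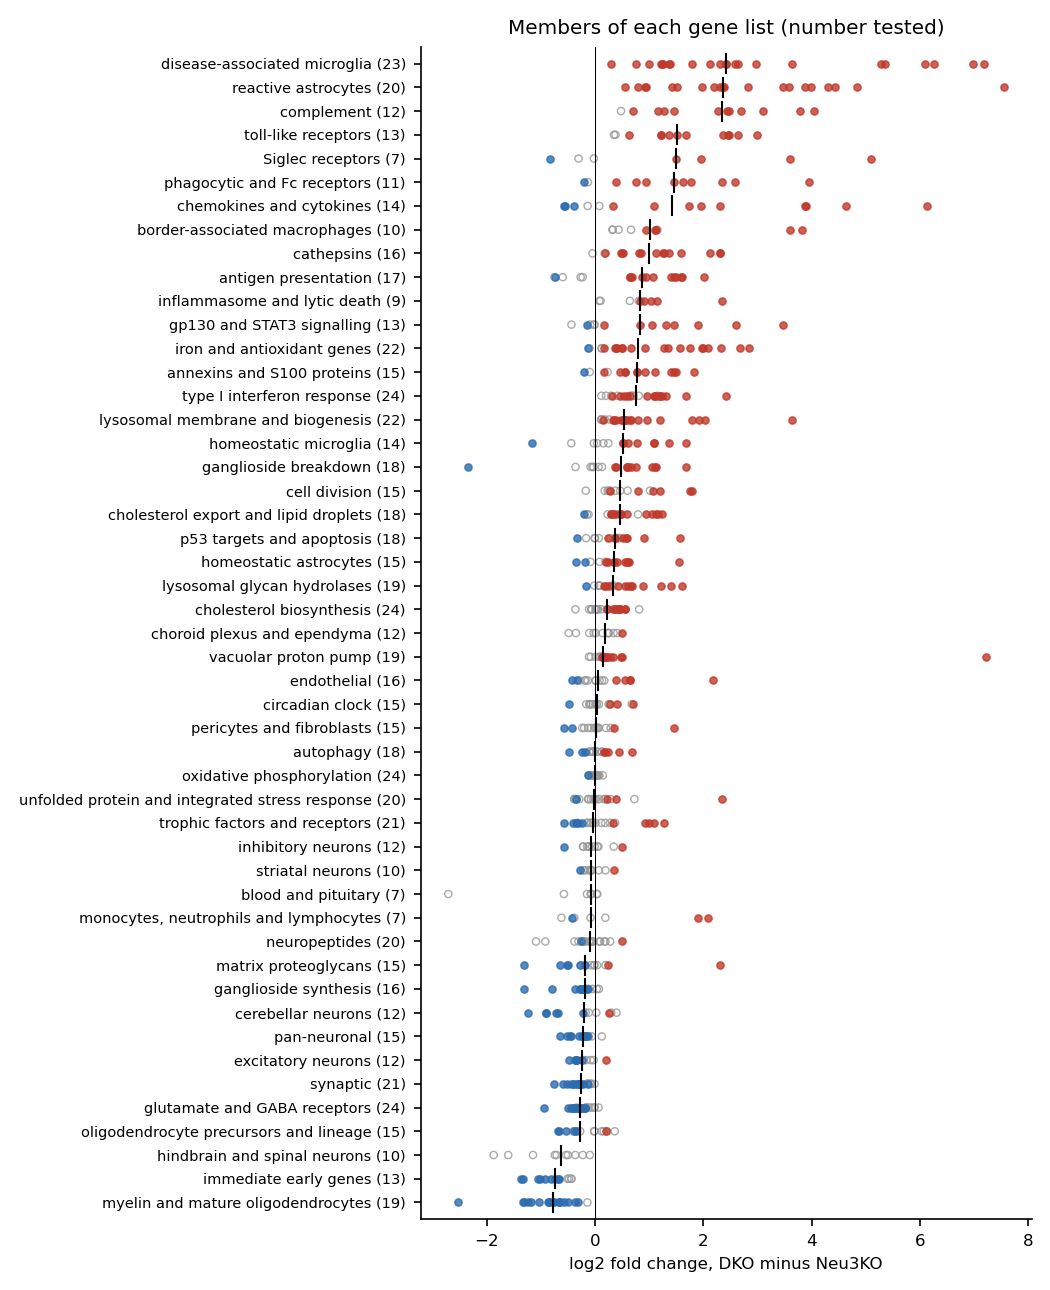
Log2 fold change of DKO against Neu3KO for each tested member of the 49 gene lists, with the number tested in brackets. Filled red points rose, filled blue points fell, open grey points did not pass the test, and black bars are medians. The lists are ordered by median, from 2.41 for disease-associated microglia to -0.78 for myelin and mature oligodendrocytes.

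The loss of Glb1 was also measured where Neu3 is present, as Glb1KO against WT, with no library in common with DKO and Neu3KO. That comparison called 726 genes, or 3.96% of those tested, with 321 higher (1.75%) and 405 lower (2.21%). A fit that adds a term for the identifier letters called 315, of which 125 were higher and 190 lower. Of its 321 higher genes 83.2% were also higher in DKO against Neu3KO, which was 11.8% of the 2263 genes higher there. Of its 405 lower genes 259 were also lower in DKO against Neu3KO (64.0%), which was 11.1% of the 2343. Only 12 genes were called in opposite directions. The difference between the effects of Glb1 loss without and with Neu3 (the interaction) was called for 1255 genes, or 6.84%. It was positive for 727 (3.96%) and negative for 528 (2.88%). The identifiers begin with E in all WT libraries and with L or E in Glb1KO, so that the letters differ between the pairs of groups and cannot be fully told apart from Neu3 in this test. The hindbrain list summed to 68.6 to 116 CPM in WT and to 18.2 to 37.7 CPM in Glb1KO. Its median log2 fold change there was -2.08, and 3 of its genes fell. The part of brainstem content in the Glb1KO and WT comparison, and so in the interaction, was not tested.

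The interaction was positive for 18 of 23 disease-associated microglia genes and for 15 of 20 reactive astrocyte genes. C4b rose by 3.79 without Neu3 and by 1.41 with it, an interaction of 2.38 (edgeR adjusted p = 7.8e-20). Gfap rose by 4.44 and by 1.27, and Serpina3n by 4.83 and by 1.40. Grn rose by 2.02 and by 0.60, Mpeg1, a pore protein of macrophages, by 3.44 and by 1.60, and Ctsb by 1.26 and by 0.32. The interaction was called for each of these 6 genes, which for all but Gfap was a condition of their choice. For Cd22 it was not, with rises of 5.10 and 3.69 (edgeR adjusted p = 0.34).

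Genes lower in DKO split into those for which the interaction was called and those for which it was not. Kif5a fell by 1.40 without Neu3 and by 0.54 with it (interaction -0.85, edgeR adjusted p = 2.8e-06). Apln fell by 1.41 without Neu3 and stood at -0.20, not called, with it. Abhd12b, Ramp3 and Camkk2 also had a negative interaction, of -2.83, -1.04 and -0.54. A called negative interaction was a condition for naming these 5 genes here. The interaction was negative for 8 of 21 synaptic and 10 of 24 receptor genes.

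For myelin the picture was other. Of its 19 genes 18 fell without Neu3 and 17 fell with it, with medians of -0.78 and -0.86. The interaction was called for 4, all of them positive, so these fell by less in DKO against Neu3KO. They include Mbp (0.33) and Myrf (0.51), the transcription factor of myelin genes. The hindbrain list summed to 68.6 to 116 CPM in WT and to 18.2 to 37.7 CPM in Glb1KO. The part of brainstem content in these myelin values was not tested.

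**Figure D4:**
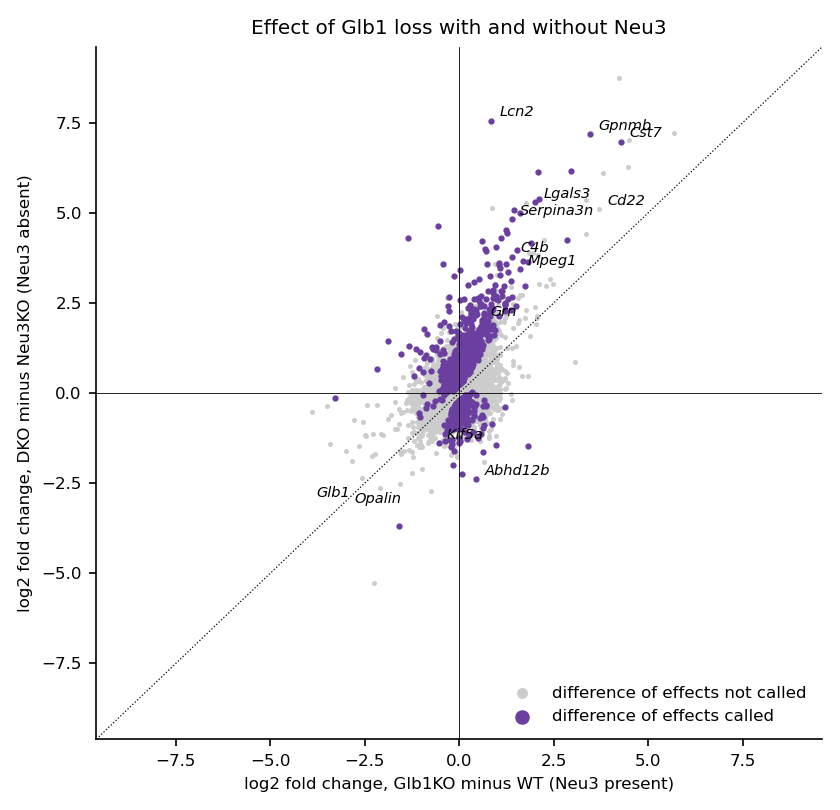
Log2 fold change of DKO against Neu3KO (vertical axis) against that of Glb1KO against WT (horizontal axis) for each gene tested. Purple points are the 1255 genes for which the difference of the effects was called, and the dotted line marks equal effects. Gpnmb, Lcn2 and C4b lie above the line, and Kif5a and Abhd12b below it.

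**Figure D5:**
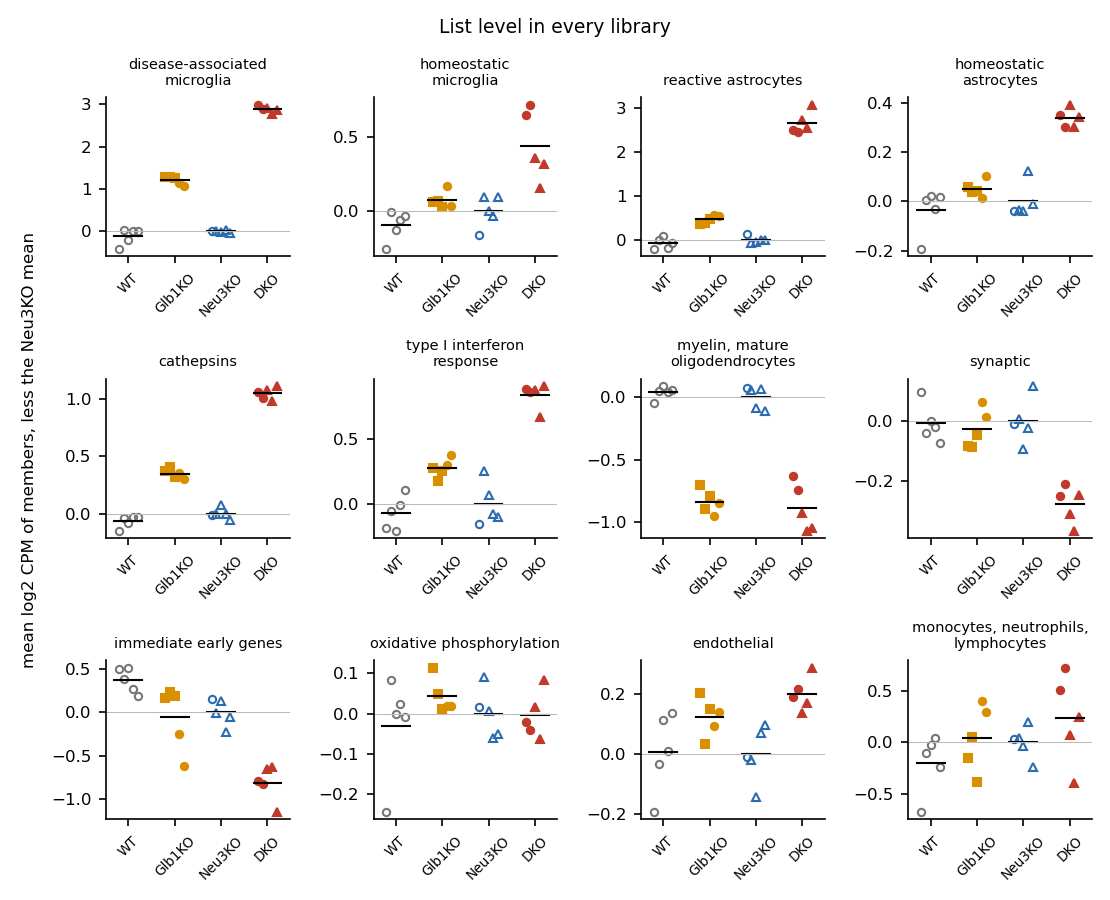
Mean log2 CPM over the tested members of 12 lists in each of the 20 libraries, less the mean of the Neu3KO libraries, with bars at group means. Circles, triangles and squares mark identifiers starting with E, W and L. The DKO libraries lie between 2.77 and 2.99 for disease-associated microglia and between -1.06 and -0.63 for myelin, whereas oxidative phosphorylation lies near 0 in DKO and Neu3KO.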

How the data were processed

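Raw read counts per gene for 20 libraries were deposited by the authors, with no normalization. The submitters' processing notes name fastp, HISAT2 2.0.5, featureCounts 1.5.0-p3, DESeq2 1.20.0, mm10 and GRCm38, with no roles or strand setting. Without strand, reads of overlapping or antisense genes cannot be told apart. The FPKM table and the authors' comparison of DKO with WT were not used here.

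Of 54532 genes, 18336 passed edgeR's filter for low counts. One model with a mean for each genotype was fitted to all 20 libraries (edgeR 4.0.16, R 4.3.3), with TMM scaling, the robust quasi-likelihood F test and Benjamini-Hochberg adjustment at 0.05 without a fold minimum. SE came from the F statistic. The interaction was (DKO minus Neu3KO) less (Glb1KO minus WT). The method was tested on simulated counts. Levels of the targeted genes were compared by exact permutation over 252 arrangements. Replicate pairs differed by more than counting noise, so no library was counted as a duplicate.

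The members and the 49 gene lists were chosen with earlier results of these data known. The rule for named genes took the 12 highest and 12 lowest fold changes among called, protein-coding, named genes whose groups did not overlap, whose mean was 1 CPM or more and which lay outside 20 Mb of Glb1 and Neu3. It added the 5 called genes nearest to Glb1, the 5 interaction genes of smallest adjusted p in each direction and, per list, up to 4 members of smallest adjusted p and 2 of highest CPM. Genes named outside this rule were chosen after their values were seen: Trem2, Tyrobp, Cx3cr1, P2ry12, Tmem119, Slc2a5, C3, C3ar1, Isg15, H2-Aa, H2-Eb1, Ciita, Slc6a11, Socs3, Steap4, Ctsd, Ctss, Npc2, Tfeb, Tfe3, Neu1, Gm2a, B4galnt1, Bdnf, St3gal5, Enpp2, Pdgfra and Myrf. Promoters came from RefSeq (GRCm38.p6, 250 bases before to 50 after the start), in which 583 of 789 list genes had a window, and motifs were searched on both strands. Alternatives were other scalings and filters, DESeq2 1.42.0, a fit to DKO and Neu3KO alone, a term for the replicate number or for the identifier letter, the W libraries alone, a fold minimum of 1.2, and fits without the genes near Glb1 and Neu3 or without 1 library. Counts of list members under the letter term and in the W libraries were added after seeing the data.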

Additional observations from a re-analysis of the deposited data

Results flagged for a closer look

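For 19 of 294 groups of 5 libraries checked over the named genes, 1 library stood far from the other 4, measured as its gap to the nearest library divided by the group's range. Chance gives this for about 1 group in 20. DKO replicate 5 was such a library for 6 genes. It was the highest DKO library for Stat3 (152 CPM, against 116 to 121 in the other 4, gap 0.861 of the range), Socs3 (14.8 against 4.96 to 7.39, gap 0.751), Fas (5.04 against 2.24 to 2.90, gap 0.764), Lilr4b (15.8 against 6.66 to 9.03, gap 0.742) and Atp6v1g1 (93.3 against 71.5 to 77.1, gap 0.745). It was the lowest for Atp6v0e (28.3 against 32.8 to 34.6, gap 0.720). DKO replicate 1 was the highest for Clec7a (28.5 CPM against 21.1 to 22.2, gap 0.844), H2-D1 (175 against 138 to 147, gap 0.763), H2-Aa (1.99 against 0.767 to 1.01, gap 0.805) and Ramp3 (8.94 against 7.64 to 7.78, gap 0.897). DKO replicate 2 was the highest for Hcar2 (3.25 CPM against 2.46 to 2.65, gap 0.760) and Pdgfra (61.2 against 52.9 to 55.2, gap 0.726), and the lowest for Alpk2 (0.237 against 0.902 to 1.15, gap 0.729).

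Among the Neu3KO libraries, replicate 3 was the highest for Ccl3 (0.825 CPM against 0 to 0.192, gap 0.767) and for Ccl4 (0.0590 against 0 in the other 4, gap 1), and the lowest for Colq (1.36 against 2.24 to 2.55, gap 0.745). Replicate 2 was the highest for Bst2 (4.14 against 1.84 to 2.41, gap 0.755). Replicate 4 was the lowest for Nlrc5 (0.678 against 1.30 to 1.54, gap 0.719), and replicate 5 for Npc2 (44.0 against 54.2 to 57.0, gap 0.785).

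The fold change on Glb1 loss differed between the mice without Neu3 and the mice with Neu3 for 1255 genes by the interaction term (edgeR, Benjamini-Hochberg adjustment). On the log2 scale the fold change in DKO against Neu3KO exceeded that in Glb1KO against WT by 6.72 for Lcn2, 3.73 for Gpnmb, 3.28 for Lgals3, 3.27 for Stra6l, 3.22 for Lilr4b and 2.70 for Cst7. It lay below it for Abhd12b (-2.83), Apln (-1.21), Tnc (-1.07), Arc (-0.95) and Kif5a (-0.85). These genes are those of the 12 highest and 12 lowest in DKO against Neu3KO for which the interaction was called. Choosing by that fold change favours a larger change in DKO against Neu3KO. The interaction was not called for the others of the highest, Mmp12, Atp6v0d2, Itgax, Lilrb4a, Hcar2 and Cd22. Nor was it for Opalin, Colq, Slc5a1, Alpk2, Npas4, Mal and Ugt8a of the lowest.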

How the results depend on the processing

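The count of 4606 genes called between DKO and Neu3KO fell to 1349 with a fold minimum of 1.2, of which 939 were higher and 410 lower. It was 3724 in the W libraries alone, 4215 with the compared groups alone and 4838 by DESeq2, and ran from 3783 to 4667 when 1 library was left out. The count for Glb1KO against WT, 726, fell to 315 with the identifier letter as a term and ran from 551 to 824 when 1 library was left out. It was 946 by DESeq2 and 964 with no filter on low counts. The interaction count, 1255, ran from 984 to 1321 when 1 library was left out. It was 1474 by DESeq2 and 1473 with no filter on low counts. With the identifier letter as a term it was 1111, of which 888 were among the 1255. Leaving out 1 library gave Glb1 levels in DKO of 17.9% to 21.4% of those in Neu3KO, and Neu3 levels of 92.3% to 112%. Within 5 Mb of Glb1, 29.0% of the tested genes were called. The causes were not tested.

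Directions turned for 4 genes that were not called. When 1 library was left out, the log2 fold change of Neu3 ran from -0.11 (without DKO replicate 4) to 0.17, that of Pdgfra from -0.045 to 0.0027 (without DKO replicate 4) and that of P2ry12 from -0.050 to 0.12. That of St3gal5 was 0.0047 in the W libraries alone and 0.013 with the first digit of their identifiers as a term. That of P2ry12 was -0.0062 with the letter term, -0.20 in both W fits, and below 0 without Neu3KO replicate 1, DKO replicate 1 or DKO replicate 2.

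Same-numbered libraries of the compared groups did not deviate together (correlations -0.033 to 0.050), so the numbers do not pair them. With the replicate block 4448 genes were called, and of 157 results checked (147 named genes and 10 interactions) 1 lost its call, that of Ttr. Low depth limits genes of few reads, such as S100a8 and Ccl4.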
